A study of Mus musculus with 2 samples.

Results

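The genes of odor signal transduction were located within the chromatin boundary list of mouse olfactory sensory neurons. The group consists of 10 named genes, Gnal, Gng13, Ric8b, Adcy3, Pde1c, Cnga4, Cngb1, Ano2, Slc24a4 and Omp, taken by name from GENCODE release M21 out of 21755 protein-coding genes on the chromosomes covered. In situ Hi-C, which joins DNA ends that are neighbours in the nucleus and reads the joined pairs, was performed on 28000 and 24400 sorted cells, 2 biological replicates from male and female adults of the MOR23-GFP line. MOR23 is another name of the odorant receptor gene Olfr16, and the sorted cells were mature sensory neurons of the olfactory epithelium that express it. The labels list no treatment and no modification besides the GFP reporter of the sorting protocol, leave the mouse strain unspecified and name no second cell population.

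The list holds 7435 boundaries, positions that separate stretches of chromosome rich in internal contacts, each 5 kb wide, on chromosomes 1 to 19 and X of GRCm38. The authors' caller classed 3854 as Strong and 3581 as Weak and gave each a score, with a median of 0.520 and quartiles of 0.301 and 0.969. Boundaries were called on both replicates combined, so each score is 1 pooled value. No spread between replicates, no depth and no test between conditions can be given, and every value below is a description of this list. Gene expression was not measured here, so the identity of the cells was not checked against marker genes.

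In these neurons an odorant receptor in the cilium activates the G protein Golf, whose alpha subunit is the product of Gnal. Golf turns on adenylyl cyclase 3, cyclic AMP opens a cyclic nucleotide-gated cation channel, and the calcium that enters opens a chloride channel that enlarges the response. Phosphodiesterases degrade cyclic AMP and an exchanger removes calcium, which ends the response. Omp, whose product is the olfactory marker protein, is the classical marker of the mature neuron.

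The starts of the 10 genes lay at 0 to 107.4 kb from a boundary, with a median close to that of all protein-coding genes. Distances ran from the 5′ end of the annotated gene to the edge of the nearest boundary. The median was 57.0 kb for the 10 genes and 57.8 kb for 21542 protein-coding genes with a boundary on each side (quartiles 25.4 and 105.9 kb). A start lay within 10 kb of a boundary in 1 of the 10 genes, where 12.5% of all protein-coding starts did, and within 50 kb in 5 of 10, where the share of all starts was 44.3%. Both counts are close to those shares. In order of distance the genes were Gng13, Gnal, Cngb1, Adcy3, Omp, Cnga4, Ano2, Slc24a4, Pde1c and Ric8b. With 1 value per gene and no spread, the order of neighbours such as Adcy3 (48.1 kb) and Omp (49.5 kb), or Slc24a4 (91.3 kb) and Pde1c (94.1 kb), cannot be told from a tie, since boundaries were placed in steps of 5 kb.

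**Figure D1:**
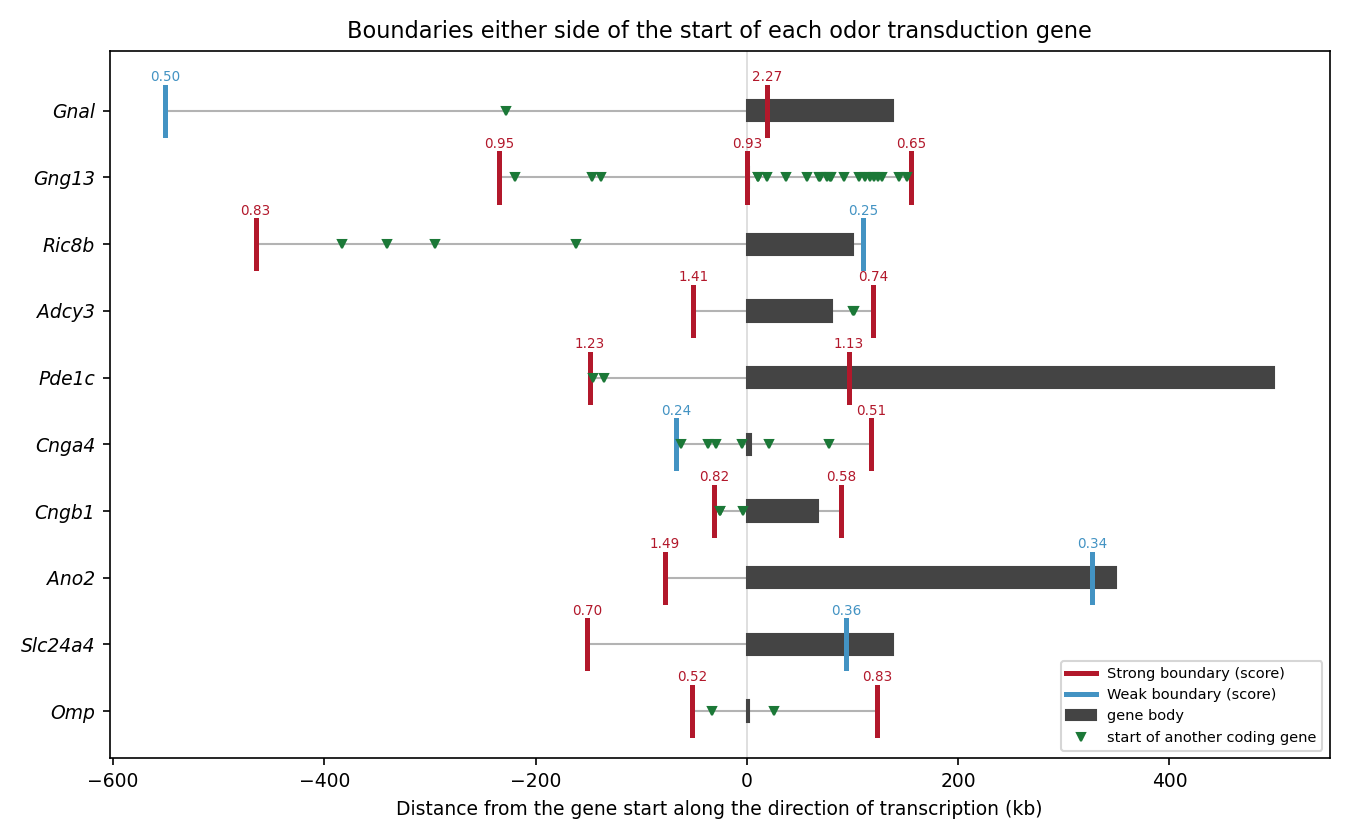
Position of the boundaries around each of the 10 gene starts, with distance from the start along transcription in kb on the horizontal axis and 1 row per gene. Bars are boundaries with their scores (red Strong, blue Weak), boxes are gene bodies and triangles are starts of other protein-coding genes in the same interval. The start of Gng13 falls on a boundary, and boundaries cross the bodies of Gnal, Pde1c, Ano2 and Slc24a4.

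**Figure D2:**
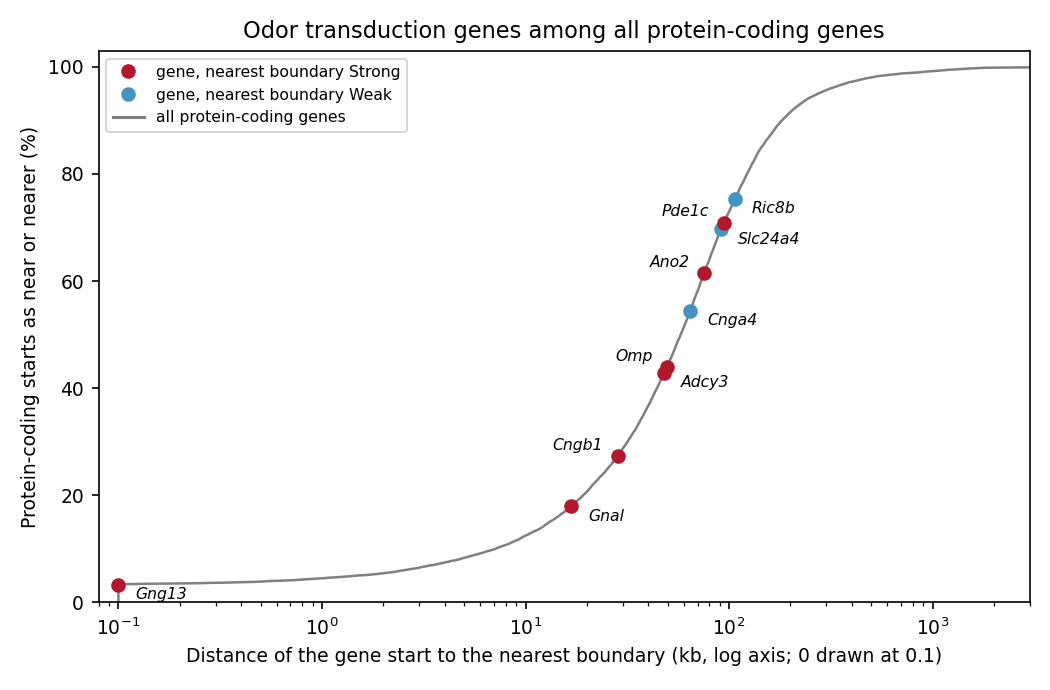
Cumulative share of protein-coding gene starts (vertical axis, percent) against distance to the nearest boundary (horizontal log axis, kb). Points are the 10 genes, red where the nearest boundary is Strong and blue where it is Weak. They run from Gng13 at 0 kb, drawn at 0.1, to Ric8b at 107.4 kb.

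The gene whose start coincided with a boundary was Gng13, which encodes the gamma subunit found with Golf. Gng13 (chromosome 17, positions 25717171 to 25719406, + strand) is 2.24 kb long and lay entirely within the Strong boundary at 25715001 to 25720000, which scored 0.928, as high as or higher than 73.6% of the list. Starts of protein-coding genes fell inside a boundary in 3.28% of cases, and whole genes in 0.223%. The boundary also overlaps coding exons of Chtf18, a subunit gene of an alternative replication factor C complex, which runs towards Gng13 from the other strand and overlaps its end. Gene content differed on the 2 sides. The interval to the left was 230 kb long and held 3 protein-coding starts, those of Sstr5, Sox8 and Lmf1, which were named after their values were seen. The interval to the right was 150 kb long and held 19, the nearest being Chtf18, Rpusd1, Mslnl, Msln, Narfl and Haghl, at 10.2 to 68.5 kb from the start of Gng13. Both outer boundaries were Strong, with scores of 0.946 upstream and 0.649 downstream.

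Gng13 has annotated RefSeq starts at a pair of sites, both within the boundary, and the sequences of these promoters are shown because they are the only ones of the group that lie in one. RefSeq promoter windows (GRCm38.p6) of 250 bases before to 50 after the start are printed 5′ to 3′ on the + strand, with CG pairs in capitals. The first, chr17:25716922-25717221, holds 6 CG pairs and the second, chr17:25717278-25717577, holds 34, against a median of 7 over 32851 promoters of the same length. As few or fewer were found in 47.9% of promoters for the first and in 93.0% for the second.
Gng13 first start: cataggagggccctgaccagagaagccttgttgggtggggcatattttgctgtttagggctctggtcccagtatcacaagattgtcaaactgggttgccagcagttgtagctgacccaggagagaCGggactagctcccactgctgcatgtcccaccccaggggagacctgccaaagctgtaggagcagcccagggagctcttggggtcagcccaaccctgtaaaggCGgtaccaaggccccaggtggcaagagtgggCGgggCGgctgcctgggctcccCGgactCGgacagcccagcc
Gng13 second start: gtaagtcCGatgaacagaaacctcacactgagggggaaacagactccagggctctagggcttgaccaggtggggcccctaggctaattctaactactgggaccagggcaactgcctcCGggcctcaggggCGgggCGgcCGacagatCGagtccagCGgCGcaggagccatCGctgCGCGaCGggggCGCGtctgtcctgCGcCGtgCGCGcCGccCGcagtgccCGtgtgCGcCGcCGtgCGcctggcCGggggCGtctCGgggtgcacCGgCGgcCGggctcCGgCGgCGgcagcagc
The GC content of the whole boundary was 58.6%, against a median of 42.6% over all boundaries. That median is not a like reference, since 46.3% of all boundaries overlap no annotated gene body and this one holds a whole gene.

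Ric8b encodes a chaperone and exchange factor for the alpha subunit of Golf. It had the farthest start of the group, 107.4 kb from the nearest boundary, a distance that 75.4% of protein-coding starts did not exceed. Ric8b (chromosome 10, 84917616 to 85018337, + strand) occupied one end of an interval of 570 kb, the longest of the group. The boundary beyond its 3′ end lay 6.66 kb from the last base of the gene and was Weak, with a score of 0.250 (85025001 to 85030000). That score was as high as or higher than 14.1% of the list, whose lowest score is 0.2. With Strong boundaries only, the start of Ric8b lay 277.4 kb from the nearest boundary, in an interval of 740 kb. The gene end was within 10 kb of a boundary in 2 of the 10 genes, Ric8b and Gng13, where 12.3% of protein-coding gene ends were. On the upstream side a Strong boundary scored 0.826 lay 462.6 kb away, in an intron of the noncoding gene Gm47962. The 4 other protein-coding starts of the interval were those of Rfx4, a transcription factor gene, Polr3b, an RNA polymerase III subunit gene, Tcp11l2 and Ckap4. They lay 161.6 to 383.6 kb upstream of the start of Ric8b.

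Gnal, the gene of the alpha subunit of Golf, was crossed by the highest-scored boundary of the group. Gnal (chromosome 18, 67088216 to 67226792, + strand) is 138.6 kb long, and the Strong boundary at 67105001 to 67110000 lay in its body, 16.8 kb past the first start. The score was 2.27, as high as or higher than 98.1% of the list. This boundary fell between 2 groups of annotated coding transcripts. The first 4 start at 67088216 to 67088335, before the boundary, and the longest of them has 448 codons. The other 4 start at 67132983 to 67133750, at least 44.8 kb downstream and 23.0 to 23.8 kb past the boundary, and the longest of these has 381 codons. As background, the longer protein is known as the extra-long form XLGolf and the shorter is the alpha subunit described from olfactory neurons. In the transcripts that cross the boundary it lay in the first intron, and 12.1% of the gene lay before it.

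The stretches on either side of the Gnal boundary differed in length and content. Upstream of it lay an interval of 565 kb, as long as or longer than that of 86.0% of protein-coding starts, with 1 other protein-coding start, that of the melanocortin receptor gene Mc4r at 227.7 kb. The far end of that interval was a Weak boundary scored 0.4999, beside the lowest Strong score of 0.5004 in the list, in sequence with no annotated gene. Downstream lay an interval of 160 kb that ended at a Strong boundary scored 0.957 (67270001 to 67275000). It held the second set of Gnal starts together with the starts of Chmp1b and Mppe1, the first within the body of Gnal and the second past its end, both named after their values were seen. With Strong boundaries only, the interval before the Gnal boundary was 1000 kb long.

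**Figure D3:**
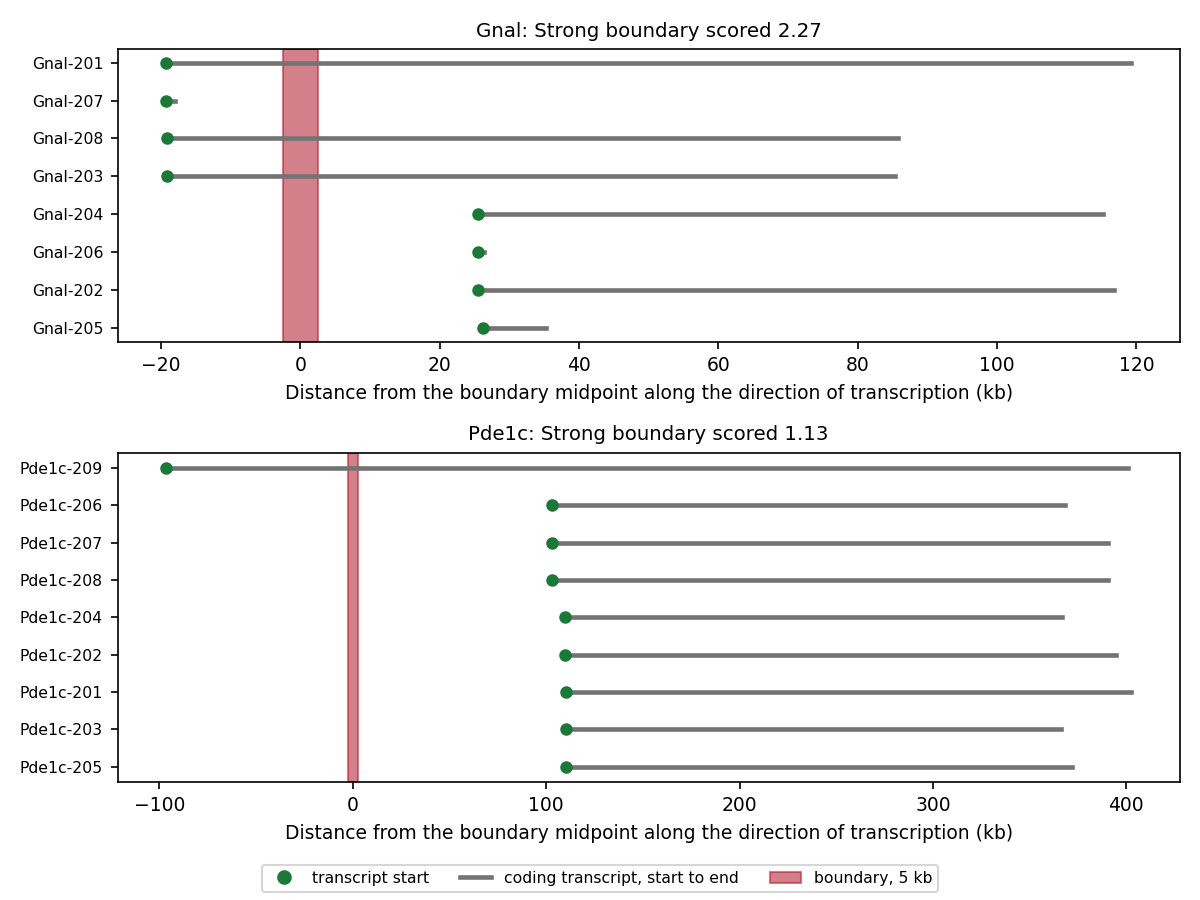
Annotated protein-coding transcripts of Gnal (top) and Pde1c (bottom), with distance from the midpoint of the boundary inside the gene along transcription in kb on the horizontal axis and 1 row per transcript. Dots are transcript starts, lines run from start to end and the red band is the boundary. In Gnal, 4 starts lie on each side of the boundary scored 2.27, and in Pde1c, 1 start lies before and 8 lie past the boundary scored 1.13.

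Adcy3 encodes adenylyl cyclase 3, the enzyme that makes cyclic AMP in the olfactory cilium. Adcy3 (chromosome 12, 4133103 to 4213525, + strand) lay whole in an interval of 165 kb, as long as or longer than that of 16.3% of protein-coding starts. Strong boundaries closed it on both sides. The upstream one, 48.1 kb from the start, scored 1.41 and overlaps the start of Dnajc27, and the downstream one, 116.9 kb from the start, scored 0.739 and overlaps coding sequence of Ncoa1, a nuclear receptor coactivator gene. The body of Adcy3 covered 48.7% of its interval. It shared it with 2 other protein-coding starts, those of the centromere protein gene Cenpo, which overlaps the end of Adcy3 from the other strand, and of Ptrhd1. All 4 coding transcripts of Adcy3 start in this interval.

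Pde1c encodes a calcium- and calmodulin-dependent phosphodiesterase that degrades cyclic AMP. At 499.3 kb it was the longest gene of the group, and like Gnal it had coding starts on both sides of a Strong boundary. Pde1c (chromosome 6, 56069804 to 56569103, - strand) was crossed at 56470001 to 56475000 by a boundary scored 1.13, which lay in an intron with 2 of 19 exons before it. Only 1 of 9 coding transcripts starts before this boundary, 94.1 kb from it, and 8 start past it, at 100.4 to 107.7 kb. The interval that holds the first start was 240 kb long and closed upstream by a Strong boundary scored 1.23 that overlaps Avl9, whose start lay 0.102 kb from it. The starts of Avl9 and of Lsm5, which encodes a protein of the U6 spliceosomal particle, were the 2 others in that interval. The next interval, which holds the 8 other coding starts, was 515 kb long and had 1 other protein-coding start, that of Ppp1r17, named after its value was seen.

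Coding transcript starts on both sides of a boundary were found in 2 of the 10 genes, Gnal and Pde1c, and in 2.57% of all protein-coding genes. Among the 1178 genes over 100 kb with a boundary in the body, a class that holds both, the share was 33.7%. In the group it was 2 of the 4 genes of that class, the others being Ano2 and Slc24a4. Ano2 has 1 annotated coding transcript, so it could not have starts on both sides. A boundary overlapped the body of 5 of the 10 genes, where 15.5% of all protein-coding genes held one. By length class, among genes over 100 kb it was 4 of 5 in the group (Gnal, Pde1c, Ano2 and Slc24a4, but not Ric8b), beside 47.5% of all. From 50 to 100 kb it was 0 of 2 beside 22.4%, and under 50 kb 1 of 3 (Gng13) beside 9.71%.

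The cyclic nucleotide-gated channel of these neurons is built from the subunits of Cnga2, Cnga4 and Cngb1. Cnga4 (chromosome 7, 105404568 to 105408742, + strand) encodes a modulatory subunit and shared its interval with odorant receptor genes. That interval, of 180 kb, holds the starts of Olfr691 and Olfr692, at 62.3 and 36.3 kb upstream. An odorant receptor gene shared the interval of 1.46% of protein-coding starts that are not odorant receptors themselves. The upstream boundary, 64.6 kb from the start at 105335001 to 105340000, overlaps coding sequence of Olfr691 and was Weak, with the lowest score of the group, 0.236. That score was as high as or higher than 10.3% of the list. Downstream, 115.4 kb from the start, lay a Strong boundary scored 0.507, near the lowest score of that class. The other 4 protein-coding starts were those of Fam160a2, which starts 4.51 kb from Cnga4, of Cckbr, a receptor gene for cholecystokinin, and of Gm5901 and Cavin3. If Weak boundaries are left out, the interval of Cnga4 becomes 2245 kb long and holds 114 protein-coding starts.

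Cngb1 encodes another modulatory subunit of the same channel and lay in the shortest interval of the group, 115 kb. Only 3.83% of protein-coding starts had an interval as short. Cngb1 (chromosome 8, 95239045 to 95306585, - strand) covered 58.7% of it, and Strong boundaries scored 0.819 and 0.582 closed it at 28.4 kb upstream and 86.6 kb downstream of the start. The upstream boundary overlaps coding exons of Usb1, an RNA-processing nuclease gene, and the starts of Usb1, Zfp319 and Tepp lay in the same interval. Annotated coding transcripts of Cngb1 begin at several sites, and all 6 start within this interval. The longest has 1325 codons, and 2 that start 25.0 kb further downstream have 866 codons. As background, a long form is known from rod photoreceptors and, in rat, a shorter form with a later start from olfactory neurons.

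Sequences around CTCF consensus matches are shown for the boundaries beside these genes, because CTCF is the insulator protein found at many boundaries of mammalian chromosomes. The CTCF consensus was searched on both strands of the reference genome. A match lay within 10 kb of 6 of the 21 boundaries beside or around the 10 starts, where 23.1% of all boundaries had one, and this count is near that share. Within 25 kb the count was 12 of 21, beside 38.1% of all boundaries. No match lay inside these boundaries themselves, where 6.29% of all boundaries had one. The 5 matches that can be printed are given with 9 bases on each side, read 5′ to 3′ along the consensus, which is in capitals.
Upstream of Gng13, chr17:25474480-25474509, + strand: tgctcgtgaCCAGTAGAGGGCaagcaaagg
Inside Pde1c, chr6:56481053-56481082, + strand: acaaaatgaCCAGCAGGGGGCgctgctatt
Downstream of Cnga4, chr7:105515366-105515395, - strand: ttccaatcaCCAGCAGATGGCactgcagcg
Upstream of Cngb1, chr8:95346800-95346829, + strand: cagaaatcaCCAGTAGAGGGCagcccggac
Upstream of Ano2, chr6:125622636-125622665, + strand: atatatttaCCACTAGGTGGCagacttcag
They lay 4.63 to 7.65 kb from their boundaries, within the bodies of Tekt4 (Gng13), Pde1c, Usb1 (Cngb1) and Vwf (Ano2), and outside annotated genes for Cnga4. Those beside Pde1c, Cnga4 and Ano2 read into the interval that holds the gene start, the one upstream of Gng13 reads towards that gene, and the other 2 of the 6 read out of the interval. A match is a likeness of letters and not a measured binding site.

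Ano2 encodes the calcium-activated chloride channel that amplifies the odor response. Ano2 (chromosome 6, 125690419 to 126040126, + strand) is 349.7 kb long and was alone in its interval of 400 kb. A protein-coding start was alone in its interval in 2 of the 9 genes that start between boundaries, Ano2 and Slc24a4, and in 8.85% of all such starts. The body of Ano2 covered 81.1% of its interval, a share that 98.7% of protein-coding genes did not exceed. Upstream, 75.4 kb from the start, lay a Strong boundary scored 1.49 that overlaps coding exons of Vwf, the gene of von Willebrand factor. Downstream, the interval ended within the gene at a Weak boundary scored 0.339 (126015001 to 126020000). It overlaps exon 24 of the 26 exons of the coding transcript, so 92.8% of the gene lay before the boundary.

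Slc24a4 encodes a potassium-dependent sodium-calcium exchanger that removes calcium from the cilium. Slc24a4 (chromosome 12, 102128733 to 102267091, + strand) had, like Ano2, a Strong boundary upstream and a Weak one within the body. The upstream boundary scored 0.696, lay 148.7 kb from the start and overlaps the start of Cpsf2, an mRNA cleavage factor gene, and the noncoding Ndufb1-ps. The Weak boundary scored 0.359 (102220001 to 102225000), lay 91.3 kb past the start and overlaps exons 5 to 7 in all 4 coding transcripts. Of the gene, 66.0% lay before this boundary. The interval was 240 kb long and held no other protein-coding start. Past the inner boundaries, the remaining parts of Ano2 and Slc24a4 lay in intervals with 1 protein-coding start each, those of Ntf3 and Rin3, which were named after their values were seen.

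Omp is a gene of 2.14 kb with a single exon (chromosome 7, 98143359 to 98145502, - strand) that lies within the body of Capn5, a calpain gene on the same strand. Its interval was 170 kb long, as long as or longer than that of 17.8% of protein-coding starts. The interval also held the start of Capn5, at 32.8 kb from that of Omp, and that of Myo7a, a myosin gene of the inner ear and retina, at 26.0 kb. Strong boundaries closed it, scored 0.516 at 49.5 kb upstream and 0.827 at 120.5 kb downstream. The first overlaps the start of B3gnt6 and the second lay in an intron of Gdpd4. The score of 0.516 is below the median of the list.

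Set side by side, the intervals of the 9 genes that start between boundaries had a median length of 240 kb (range 115 to 570 kb), and those of all protein-coding starts 275 kb. The median number of protein-coding starts in the interval, the gene itself included, was 3 for the 9 genes and 6 for all. The body covered a median of 38.0% of the interval for the 9 genes and 5.75% for all protein-coding genes, which are mostly shorter than 50 kb. Strong boundaries closed the interval on both sides in 4 of the 9 genes (Adcy3, Pde1c, Cngb1 and Omp), where the share of all starts was 37.7%. The nearest boundary was Strong in 7 of the 10 genes, beside 62.9% of all starts. It lay upstream in 5 of the 9 genes and downstream in 4, and upstream for 52.2% of all starts.

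**Figure D4:**
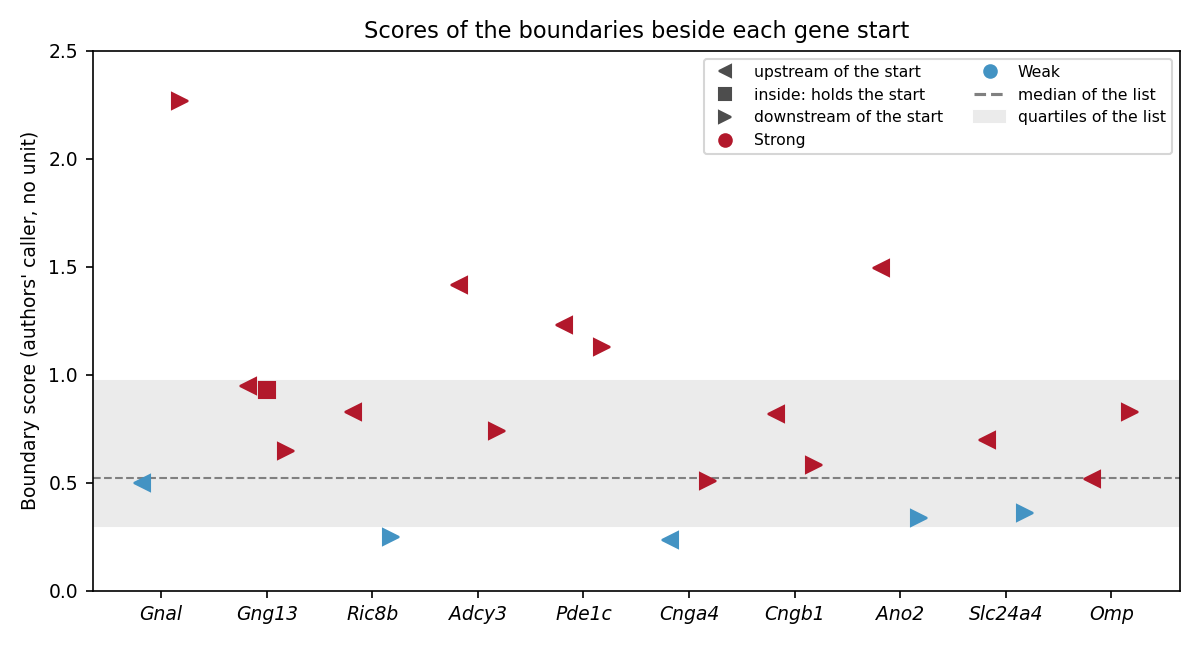
Scores of the 21 boundaries beside the 10 gene starts (vertical axis, the authors' score without unit), 1 column per gene. Triangles point left for boundaries upstream of the start and right for boundaries downstream, the square is the boundary that holds the start of Gng13, and the band and dashed line are the quartiles and median of the list. The downstream boundary of Gnal, at 2.27, is the highest and the upstream boundary of Cnga4, at 0.236, the lowest.

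Of the 21 boundaries in the plot of scores, 16 were Strong (76.2%), with a median score of 0.739. In the list as a whole 51.8% were Strong, and counted per protein-coding start 62.1% of the boundaries either side were Strong. The second share covers only starts that lie between boundaries. The 21 also include the boundaries of Gng13, which starts inside one, so the sets are not alike. The 5 Weak boundaries were those upstream of Gnal and Cnga4 and downstream of Ric8b, Ano2 and Slc24a4. No annotated gene body overlapped 5 of the 21 boundaries, where the share of the list was 46.3%. That share is not a like reference, since the 21 were chosen for lying beside coding starts. In 5 of the 10 genes a boundary lies in the gene's own body.

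Promoter sequence was compared over the 8 genes with a RefSeq promoter in the table used here, which are all but Gnal and Omp, with 14 promoters of 300 bases. Transcription factors of the Ebf family, first described as Olf-1 for sites near olfactory genes, bind TCCCNNGGGA, and homeodomain factors such as Lhx2 bind TAATTA; both motifs read the same on either strand. Neither motif was found in the 14 promoters. Among 32851 promoters, 0.904% held the first and 5.29% the second, so few matches fall in 14 windows of this length in any case. The CTCF consensus was also in none of the 14 and in 0.557% of all promoters.

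Genes of the same pathway outside the group were taken from a list of 16 genes that act in or regulate odor transduction. Their starts had a median distance of 37.5 kb, and 5 of 16 lay within 10 kb of a boundary, beside 12.5% of all protein-coding starts. Calm2 and Calm3, which encode calmodulin, and Camk2d, which encodes a calmodulin-dependent kinase, started inside boundaries scored 0.278, 0.544 and 0.833. The phosphodiesterase gene Pde2a started 1.69 kb and the receptor kinase gene Grk2 8.78 kb from a boundary. Among the farthest were Camk2a (135.6 kb) and Slc12a2 (86.3 kb), the second a chloride importer gene. Cnga2, the third channel subunit gene, on the X chromosome, started 46.8 kb from a Strong boundary scored 0.660. The interval was 180 kb long for Cnga4, 115 kb for Cngb1 and 190 kb for Cnga2. Gnb1, a beta subunit gene of G proteins, started 21.4 kb from a Strong boundary scored 1.16.

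A second list held 25 paralogues of the group that act mainly in other cells. The median distance was 57.0 kb for the 10 genes, 105.1 kb for the paralogues and 57.8 kb for all protein-coding genes. Within 10 kb of a boundary there were 2 of 25, beside 12.5% of all protein-coding starts, and this count is near that share. The genes were the G protein gene Gnao1 at 4.97 kb and the cyclase gene Adcy8 at 7.71 kb. The farthest were Adcy2 (459.5 kb), and the channel subunit genes of cone and rod photoreceptors Cngb3 (219.2 kb) and Cnga1 (210.7 kb). The 3 medians were not tested against each other.

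**Figure D5:**
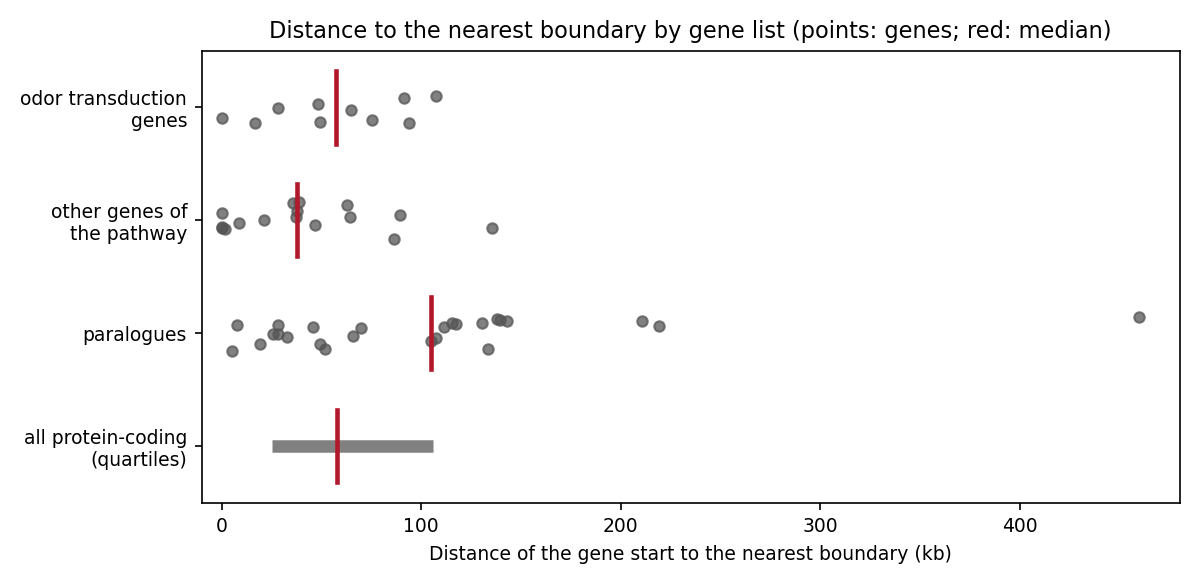
Distance of gene starts to the nearest boundary (horizontal axis, kb) for the 10 odor transduction genes, 16 other genes of the pathway and 25 paralogues. Points are genes (vertical scatter is only for display), red lines are medians at 57.0, 37.5 and 105.1 kb, and the bar at the bottom spans the quartiles of all protein-coding genes with their median of 57.8 kb.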

How the data were processed

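In situ Hi-C was performed with DpnII after fixation with 1% formaldehyde, per the labels. The deposited boundary score was used as given. The authors called boundaries on a contact matrix from the contact lists of both replicates, on GRCm38, per the series design text and the submitters' processing notes. How the score was formed, and with which caller, window, aligner and filters, was not given in the sources used here. Scores therefore only describe and rank boundaries within the list.

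From this list, distances, intervals and overlaps were computed with Python 3.11.15 and numpy 2.4.6 on GENCODE M21, with 1-based coordinates. Intervals ran between adjacent boundaries, and starts inside a boundary have none. The percentage of all protein-coding genes stands beside each count except where stated, with no test. CTCF matches were found by exact search of a consensus of 12 letters, and promoters came from RefSeq (GRCm38.p6). Distance functions were checked on simulated data. Sequence of Gnal and the value of 1 gene of the lists are not reported here.

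The members and lists were chosen with earlier results of these data known. Genes named are the 10 members, up to 6 nearest protein-coding genes in the same interval, genes that hold a neighbouring boundary, and genes of the other lists within 10 kb or among the 3 farthest; others are marked, except Cnga2 and Gnb1, channel and G protein subunits of the pathway. Alternatives were Strong boundaries only, other windows, any transcript start, midpoints, coding spans and all genes.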

Additional observations from a re-analysis of the deposited data

How the results depend on the processing

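The list gives 1 pooled value per boundary, so no replicate could be left out, and depth sets an unknown limit. No paired analysis was possible because there is 1 group and the replicates were pooled before boundaries were called. The count of 1 gene with a start within 10 kb was also 1 with Strong boundaries only (7.94% of all protein-coding genes) and with any transcript start (16.7%). It was 1 with midpoints too, for which no share of all genes is given. The count became 2 within 25 kb (24.8% of all protein-coding starts) and 5 within 50 kb (44.3%). The median distance of the group stayed between 48.1 and 62.5 kb under the 3 alternatives tried. With Strong boundaries only it was 62.5 kb, where the median of all protein-coding genes was 101.6 kb. The closeness of the 2 medians seen with the full list was thus absent in that setting. With Strong boundaries only, the median interval was 490 kb (500 kb for all protein-coding starts) and the median of protein-coding starts per interval was 4 (9 for all). A Strong boundary lay in the body of 3 of the 10 genes, where 9.41% of all protein-coding genes held one. Shares by gene length are not given for this setting. The body count was 5 with coding spans only, for which no share of all protein-coding genes is given. With all annotated genes counted, the median was 6 starts per interval (10 for all). CTCF matches lay within 0 of the 21 boundaries themselves and within 25 kb of 12 (38.1% of all boundaries). These counts changed because the alternatives use fewer boundaries, wider or narrower windows, or more genes.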

Other observations

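Alpha subunit genes of G proteins were looked at for coding starts on both sides of a boundary, after their values were seen and with no test. Of 4 such genes examined, Gnal, Gnas and Gnao1 had them and Gnai2 did not. These 4 are the alpha subunit genes of the group and its paralogue list, and the rest of the family was not examined. In the whole paralogue list 2 of 25 genes had such starts, and these were Gnas and Gnao1. The share was 2.57% of all protein-coding genes, and 33.7% of those over 100 kb with a boundary in the body, a class that holds Gnal and Gnao1. At 62.4 kb, Gnas falls outside that class, and no share is given for its own length class. Gnas, the closest relative of Gnal and the gene of the stimulatory alpha subunit of most tissues, lies on chromosome 2 at 174284320 to 174346744. A Strong boundary scored 0.680 (174310001 to 174315000) crosses it, with 11 of 16 annotated coding transcripts starting before and 5 past it. Gnas is an imprinted locus with several promoters. Gnao1 (chromosome 8, 93809966 to 93969388) was crossed by a Strong boundary scored 0.764, with 4 of 6 coding transcripts starting before and 2 past it. Among the 16 other genes of the pathway, Camk2d was the 1 gene with this arrangement, at a Weak boundary scored 0.423 with 9 coding starts before and 2 past it.

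Some of the 10 genes share a chromosome but none share an interval. Cnga4 and Omp lie 7.26 Mb apart on chromosome 7 with 32 boundaries between them. Pde1c and Ano2 on chromosome 6 are separated by 69.1 Mb and 188 boundaries, and Adcy3 and Slc24a4 on chromosome 12 by 98.0 Mb and 250 boundaries.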
